A study of Homo sapiens with 16 samples.

Results

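The 10 genes described here are 7 fatty acid elongases, ELOVL1 to ELOVL7, and 3 ceramide synthases, CERS2, CERS5 and CERS6. They were picked by symbol from a table of 19077 RefSeq mRNAs, with their levels in all 16 libraries known. Each library holds RNA pulled down by the RISC-trap method from HEK 293 cells, an established line from human embryonic kidney. RISC stands for the RNA-induced silencing complex. That method uses a dominant-negative form of GW182, the product of TNRC6A, to hold mRNAs on a complex loaded with a chosen microRNA (miRNA). Each of 6 miRNAs had 2 libraries, namely mir550-3p, mir3613-5p, mir1301-3p, mir1271-5p, mir1260a-5p and mir1180-3p. The seventh, mir124-3p, had 1 Solid and 3 Illumina libraries by their titles. All groups share the cell line, the trap and a library kit named as SOLiD. Libraries made without a miRNA, or from input RNA, are not named in the labels, so every value is relative to the other pulldowns, and more of an mRNA in the cells cannot be told apart from more recovery of it. The descriptions of both mir550-3p libraries and of mir1301-3p replicate 2 contain the word bio, which may mark biological replicates. Nothing else in the labels says that the libraries of a group came from separate cultures. The errors below therefore measure the spread between libraries, which may be technical.

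Fatty acid elongases sit in the membrane of the endoplasmic reticulum and carry out the condensation that starts each round of chain lengthening, with malonyl-CoA as the carbon donor. Ceramide synthases join an acyl-CoA to a sphingoid base, and each prefers certain chain lengths, so elongases supply what ceramide synthases use. ELOVL1 lengthens saturated and monounsaturated chains to the very long ones that CERS2 places in ceramide, and such lipids are abundant in myelin. The miRNA mir124-3p is the one most typical of neurons. miRNAs find target mRNAs mainly by pairing of their seed, bases 2 to 8.

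Mature sequences of the miRNAs were taken from RefSeq (build GRCh38.p14) to show which seed each pulldown carried. The table matched 6 of the 7 labelled miRNAs, and mir124-3p is given by name only. RefSeq lists mir1260a without an arm, and the mir550-3p libraries were matched as 550a because their descriptions name 550a. Capitals mark the seed, written 5′ to 3′.
hsa-miR-1180-3p, chr17:19344513-19344534, minus strand: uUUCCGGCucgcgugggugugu
hsa-miR-1260a, chr14:77266231-77266248, plus strand: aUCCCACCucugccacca
hsa-miR-1271-5p, chr5:176367960-176367981, plus strand: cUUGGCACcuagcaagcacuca
hsa-miR-1301-3p, chr2:25328651-25328674, minus strand: uUGCAGCUgccugggagugacuuc
hsa-miR-3613-5p, chr13:49996465-49996486, minus strand: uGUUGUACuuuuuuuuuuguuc
hsa-miR-550a-3p, chr7:29680748-29680769 on the minus strand, with a further copy at chr7:32733041-32733062: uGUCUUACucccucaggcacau
The 6 miRNAs carry 6 different seeds, so no pair of these pulldowns shares a seed.

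Total counts per library lay between 7612758 and 26527365. A count of 0 thus allowed up to 0.394 per 1000000 counts at the lowest depth and 0.113 at the highest. These limits are for counting error only and were taken on total counts, before any scaling. CPM stands for counts per 1000000 counts of the library, here after scaling over the 16 libraries by the trimmed mean of M values (TMM). Transcript lengths were not used here, so levels are compared between libraries and not between genes. TNRC6A, the gene behind the trap construct, took 0.665% to 1.49% of the counts in the 12 libraries of the 6 miRNAs, 5.11% in the mir124-3p Solid library and 4.003%, 1.07% and 3.97% in Illumina replicates 1 to 3. Illumina replicate 2 therefore stood apart from the other Illumina libraries. The 8 markers listed for HEK 293 summed to between 1074 and 2053 CPM across the 16 libraries, with 1 of them at 0 in Illumina replicates 1 and 2. Of the marker lists for other cell types, the fibroblast and keratinocyte sums were lower in every mir124-3p library than in the 12 others. The fibroblast list summed to 44.02 CPM in Solid and 30.7 to 33.1 in Illumina, against 50.4 to 205 in the 12 other libraries, and the keratinocyte list to 93.7 and 53.7 to 58.7, against 124.02 to 196. Sums of the neuron, liver and blood lists lay within the range of the 12 in Solid and below it in Illumina. No marker of these 5 lists was called in mir124-3p Solid, and their part in the results for mir124-3p was not tested.

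ELOVL1, CERS2 and CERS5 were high in the mir124-3p pulldown on both platforms, and ELOVL5 was low there. For ELOVL1 the 4 mir124-3p libraries lay between 13.8 and 23.0 times the mean of the 12 others, for CERS2 between 6.38 and 7.38 times, and for CERS5 between 3.32 and 3.54 times. CERS5 favours shorter acyl groups than CERS2, such as palmitoyl. Of the other elongases of saturated or very long chains, ELOVL3, ELOVL4, ELOVL6 and ELOVL7, none was called in mir124-3p Solid. Their fitted values were below 0, as was the median of all genes (-0.12), and ELOVL3 had only 3 counts in that library. The members were chosen with these levels in view, so the values and fits of the members are a description, with no test of their own.

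ELOVL1 stood at 419.7 CPM in the mir124-3p Solid library and at 487, 297 and 495 in Illumina replicates 1 to 3. Elsewhere it had 24.2 and 19.9 CPM with mir1180-3p, 22.9 and 23.6 with mir1260a-5p, 16.4 and 19.3 with mir1271-5p, 15.5 and 21.5 with mir1301-3p, 22.3 and 28.4 with mir3613-5p, and 20.9 and 23.7 with mir550-3p. All 4 mir124-3p libraries were thus above all 12 others, and the highest of the 12 was 1.83 times the lowest. The 12 averaged 21.5 ± 3.53 CPM (SD, n = 12), and ordered by their group means every neighbouring pair of the 6 miRNAs overlapped. In the fit of the Solid library against the 6 miRNAs the log2 fold change of ELOVL1 was 4.18 ± 0.26 (SE), the rank of 4 from the top among 18135 genes. That fit takes the spread of the lone Solid library to be that of the 6 miRNAs. With the 3 Illumina libraries in its place the value was 4.32, and 4.52 less Illumina replicate 2.

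CERS2 had 1127 CPM in the mir124-3p Solid library and 1274, 1105 and 1102 in the Illumina libraries. The 12 others read 178 and 123 CPM under mir1180-3p, 183 and 153 under mir1260a-5p, 195 and 254 under mir1271-5p, 106 and 80.2 under mir1301-3p, 171 and 187 under mir3613-5p, and 240.5 and 201 under mir550-3p. No mir124-3p library came near them, and mir1301-3p was the lowest pulldown of the rest. By group means the order ran from mir1301-3p through mir1180-3p, mir1260a-5p, mir3613-5p and mir550-3p to mir1271-5p. Of the 5 neighbouring pairs 2 did not overlap, mir1301-3p under mir1180-3p and mir3613-5p under mir550-3p. The fitted log2 fold change in mir124-3p Solid was 2.65 ± 0.27 (SE), at rank 87 of the 18135 genes, and with the Illumina libraries in its place it was 2.81.

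CERS5 was at 72.6 CPM in mir124-3p Solid and at 70.2, 68.2 and 72.3 in the Illumina libraries, whose SD was 2.08 CPM. It read 24.9 and 16.1 CPM with mir1180-3p, 24.7 and 33.8 with mir1260a-5p, 22.4 and 18.4 with mir1271-5p, 11.2 and 12.8 with mir1301-3p, 25.3 and 26.54 with mir3613-5p, and 12.5 and 17.6 with mir550-3p. Every mir124-3p library was at least 68.2 CPM and no other library exceeded 33.8. Among the 6 miRNAs mir1260a-5p had the highest mean, 29.2 CPM, and mir1301-3p the lowest. Of the 5 neighbouring pairs 2 did not overlap, mir550-3p under mir1271-5p and mir1180-3p under mir3613-5p. The fitted log2 fold change in mir124-3p Solid was 1.77 ± 0.35 (SE), at rank 632, and 1.84 with the Illumina libraries.

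ELOVL5, which lengthens polyunsaturated fatty acids, went the other way. It had 446 CPM in mir124-3p Solid and 181, 243 and 170.3 in the Illumina libraries, against 1037 and 968 in mir1180-3p, 732 and 493 in mir1260a-5p, 946 and 772 in mir1271-5p, 485 and 708 in mir1301-3p, 969.9 and 821 in mir3613-5p, and 955 and 1015 in mir550-3p. The 4 mir124-3p libraries were below all 12 others, the Solid library closely so, at 446 against 485. Its fitted log2 fold change in Solid was -0.97 ± 0.40 (SE) and was not called, where called means an edgeR quasi-likelihood p adjusted over all genes under 0.05. With the Illumina libraries in place of Solid it was -2.02. The median of all genes was also lower there, at -0.46 against -0.12 with Solid.

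**Figure D1:**
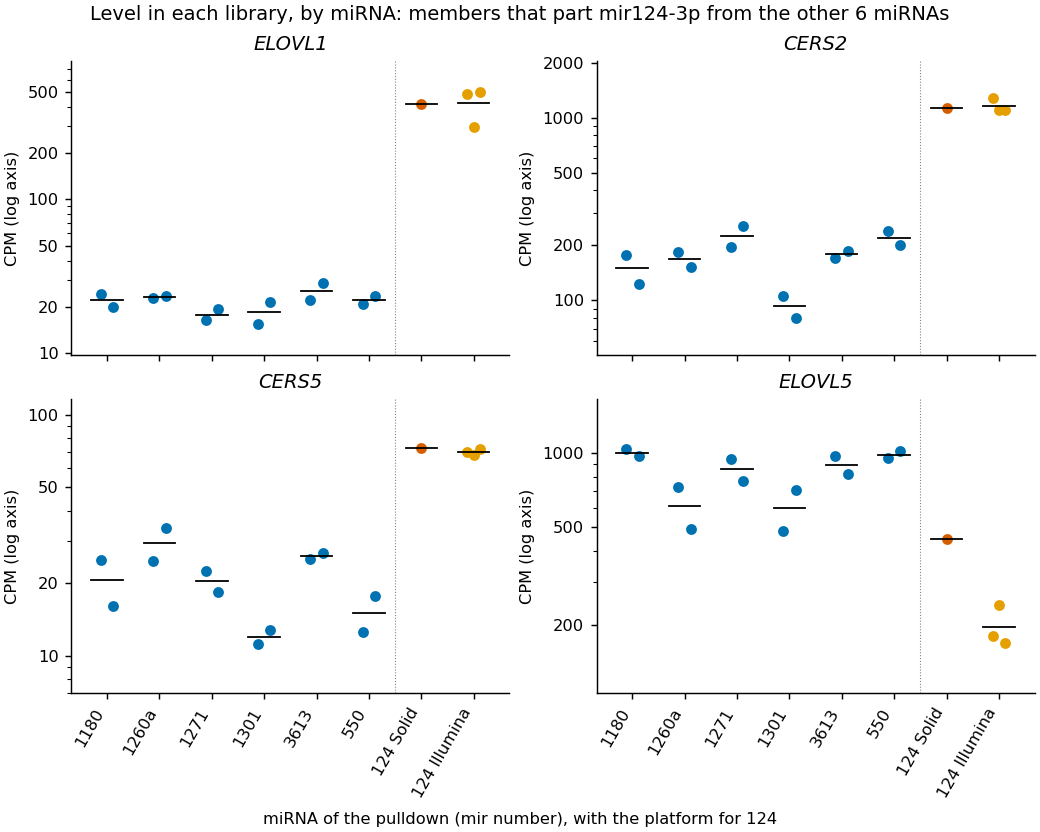
CPM on a log axis in each of the 16 libraries for ELOVL1, CERS2, CERS5 and ELOVL5, by miRNA, with the mean of each group as a line (blue, the 6 miRNAs; orange, mir124-3p Solid; yellow, mir124-3p Illumina). The mir124-3p points of ELOVL1 (297 to 495 CPM), CERS2 (1102 to 1274) and CERS5 (68.2 to 72.6) lie above all blue points, and those of ELOVL5 (170.3 to 446) below them.

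In the fit of mir124-3p Solid 3 of the 10 members were called higher (7.31% of all genes) and 0 lower (1.58%). By overlap alone, 3 members had all 4 mir124-3p libraries above all 12 others, as did 10.7% of all genes, and 1 had them below, as did 8.20%. Nothing is read from these counts, since the levels chose the members. The median log2 fold change of the 10 members was -0.30 beside -0.12 for all genes, and 7 of the 10 were below 0. ELOVL2 and ELOVL6 were nearest to 0 (-0.07 ± 0.40 and -0.14 ± 0.42, SE). ELOVL4 (-0.81 ± 0.59), ELOVL7 (-0.74 ± 0.49) and CERS6 (-0.46 ± 0.45) were lower by less than 2 standard errors. Nearest to the threshold were CERS5 inside it and ELOVL5 outside it.

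**Figure D2:**
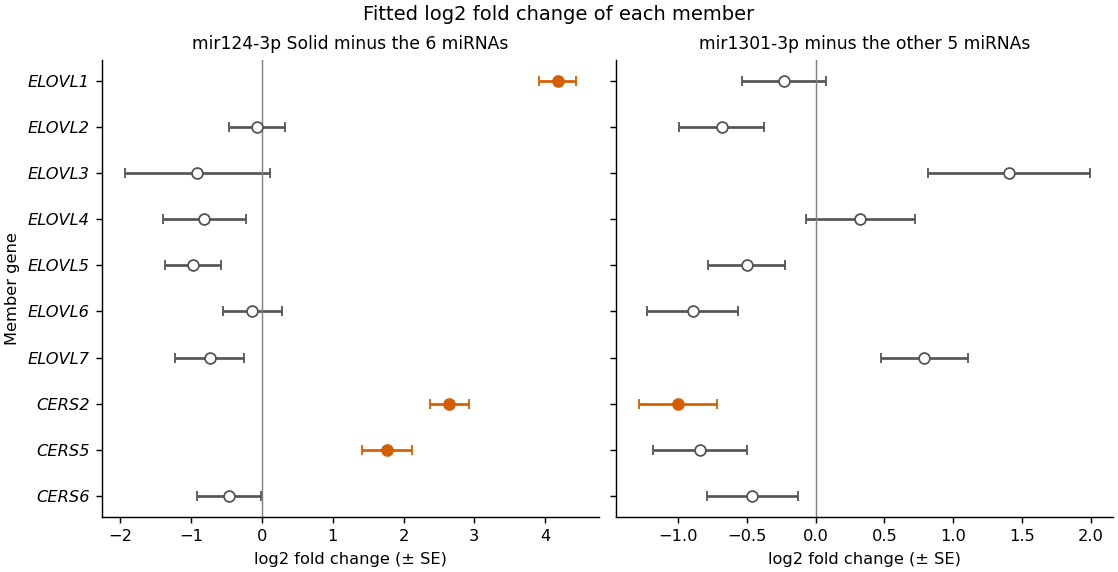
Log2 fold change with its standard error for each member in mir124-3p Solid against the 6 miRNAs (left) and in mir1301-3p against the other 5 (right), with called genes filled. ELOVL1 (4.18), CERS2 (2.65) and CERS5 (1.77) stand to the right on the left panel, and CERS2 (-0.999) is the filled point of the right panel.

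TNRC6A values stand beside these levels as follows. In Illumina replicate 2, where that share was 1.07% and so within the range of the 12 other libraries, ELOVL1 was at 297 CPM, below the 487 and 495 of replicates 1 and 3. CERS2 (1105 CPM) and CERS5 (68.2 CPM) were close to their levels in the other Illumina libraries there. All 3 genes in that library remained above each of the 12. ELOVL5 was higher there (243 CPM) than in Illumina replicates 1 and 3. The part of the TNRC6A share in these values was not tested.

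**Figure D3:**
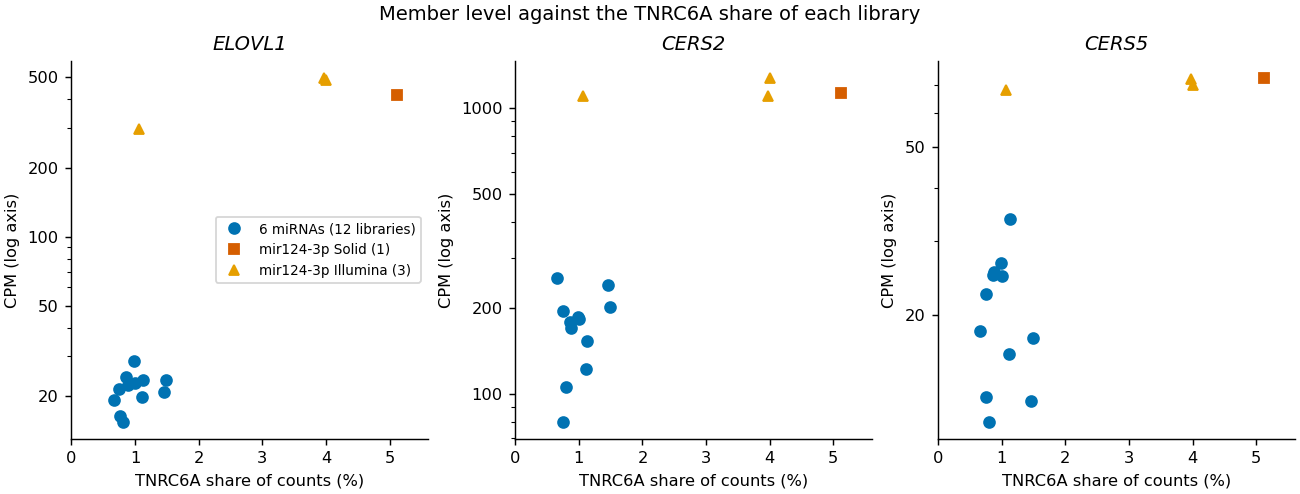
CPM on a log axis of ELOVL1, CERS2 and CERS5 against the share of counts taken by TNRC6A in each library. Illumina replicate 2, the triangle at 1.07%, sits over the same shares as the 12 libraries of the 6 miRNAs and above them in level.

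Between the platforms, the fit of the 3 Illumina libraries against the Solid library called none of the 9 members it tested, where 5.93% of all genes were called higher and 11.2% lower. ELOVL3 was not tested. ELOVL1 (0.29 ± 0.32, SE), CERS2 (0.32 ± 0.30) and CERS5 (0.23 ± 0.21) lay within about 1 standard error of 0, while ELOVL5 was at -0.88 ± 0.28. Without Illumina replicate 2 the fit called far more of all genes, in both directions. ELOVL1 (0.47), CERS2 (0.32), ELOVL5 (-1.10) and CERS6 (-0.47) were among them, so these calls share that background. ELOVL5 was called in 3 of the 6 alternatives run, also with DESeq2 (-0.89) and with upper-quartile scaling (-1.08). On the scale of all 16 libraries the Illumina values are low for many genes: 59.0% of genes, and 7 of the 9 members, had all 3 Illumina libraries below the Solid library. The low Illumina levels of ELOVL4 (26.0 to 29.7 CPM), ELOVL7 (11.4 to 12.2) and CERS6 (26.8 to 32.1), each below all 12 libraries of the other miRNAs, share that background. Platform and any other difference between these libraries cannot be told apart.

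Among the 6 other miRNAs no member was called higher in any comparison, where between 0.0906% (mir3613-5p) and 11.5% (mir1301-3p) of all genes were. The exception in the other direction was mir1301-3p, in which CERS2 was called lower. These comparisons share their reference libraries, so they are not independent of each other. All genes called higher made up 1.92% for mir1180-3p, 0.215% for mir1260a-5p, 0.606% for mir1271-5p and 1.20% for mir550-3p, and genes called lower 0.153%, 0, 0 and 0.306%.

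With mir1301-3p 1 of the 10 members, CERS2, was called lower (4.39% of all genes) and 0 higher (11.5%). CERS2 averaged 93.0 ± 18.2 CPM (SD, n = 2), and the remaining 10 libraries averaged 189 ± 38.3 CPM (SD). Its log2 fold change was -0.999 ± 0.28 (SE). ELOVL6, which converts palmitate to stearate, stood at 28.2 and 22.02 CPM with a log2 fold change of -0.89 ± 0.33. ELOVL2, which acts on long polyunsaturated chains, stood at 37.6 and 29.4 CPM with -0.68 ± 0.31. For these 3 genes both mir1301-3p libraries lay below the other 10, as for 7.51% of all genes. CERS5 was at -0.84 ± 0.34, and its libraries overlapped the others. ELOVL6, ELOVL2 and CERS5 were not called.

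In the opposite direction with mir1301-3p stood ELOVL7, with 49.6 and 25.8 CPM at a log2 fold change of 0.79 ± 0.32, and ELOVL3 with 1.40 ± 0.59 from levels of 0.719 and 1.16 CPM. Neither was called, and both overlapped the other libraries. The call of CERS2 ended without mir1301-3p replicate 1 (-1.15) or 2 (-0.88), mir1180-3p replicate 1 (-0.95) or mir550-3p replicate 1 (-0.97). With upper-quartile scaling, which moved the median of all genes by 0.40, it was -0.60 and not called, ELOVL3 (1.77) and ELOVL7 (1.21) were called higher, and the genes called were 4216 higher and 222 lower in place of 2039 and 776.

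Some markers of other cell types were called higher with mir1301-3p, where 11.5% of all genes were. The 12 fibroblast markers summed to 119 and 205 CPM in its libraries, against 50.4 to 88.7 in the other 10, and 7 of the 12 were called higher there. Of the other lists, 3 of 8 neuron markers, 2 of 5 tested keratinocyte markers, 1 of 6 liver markers, 1 of 7 tested blood markers and 1 of 8 HEK 293 markers were called higher, and 0 were called lower in any of the 6 lists. The summed levels of the neuron, keratinocyte and liver lists lay within the range of the other 10 libraries. The blood list summed to 19.2 and 28.3 CPM with mir1301-3p, against 8.44 to 25.1 in the other 10. None of the 12 fibroblast markers was at 0 in any library of the 6 miRNAs. The HEK 293 markers summed to 1074 and 1299 CPM with mir1301-3p, against 1229 to 2053 in those 10. Their part in the low CERS2, ELOVL2 and ELOVL6 values was not tested.

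Other members differed widely between libraries of the same miRNA. ELOVL4, which makes the very longest chains of retina, brain and skin, ranged from 30.2 to 130.2 CPM over the 12 libraries with a median of 54.3. Its highest library, mir1271-5p replicate 1, was at 130.2 CPM and replicate 2 of that miRNA at 46.7, and mir1260a-5p had 92.0 and 30.2. No neighbouring pair of miRNAs stood apart in ELOVL4. ELOVL7, an elongase of saturated chains, ranged from 14.5 to 49.6 CPM (median 23.1), again with no neighbours apart. CERS6, which like CERS5 favours palmitoyl chains, ranged from 37.5 to 88.9 CPM (median 52.6), where the lowest library, mir1260a-5p replicate 2, had a partner at 68.5 CPM.

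ELOVL2 ranged from 29.4 to 78.0 CPM over the 12 libraries (median 50.3), lowest in mir1301-3p and highest in mir550-3p. ELOVL6 ranged from 22.02 to 70.3 CPM (median 43.0), with the same lowest and highest miRNA. ELOVL3, an elongase of skin and brown fat, was barely detected. Its counts lay between 2 and 15 in the 12 libraries and at 3 or fewer in all mir124-3p libraries, with 0.121 to 1.69 CPM in the 12. At these counts no order of its levels is read.

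**Figure D4:**
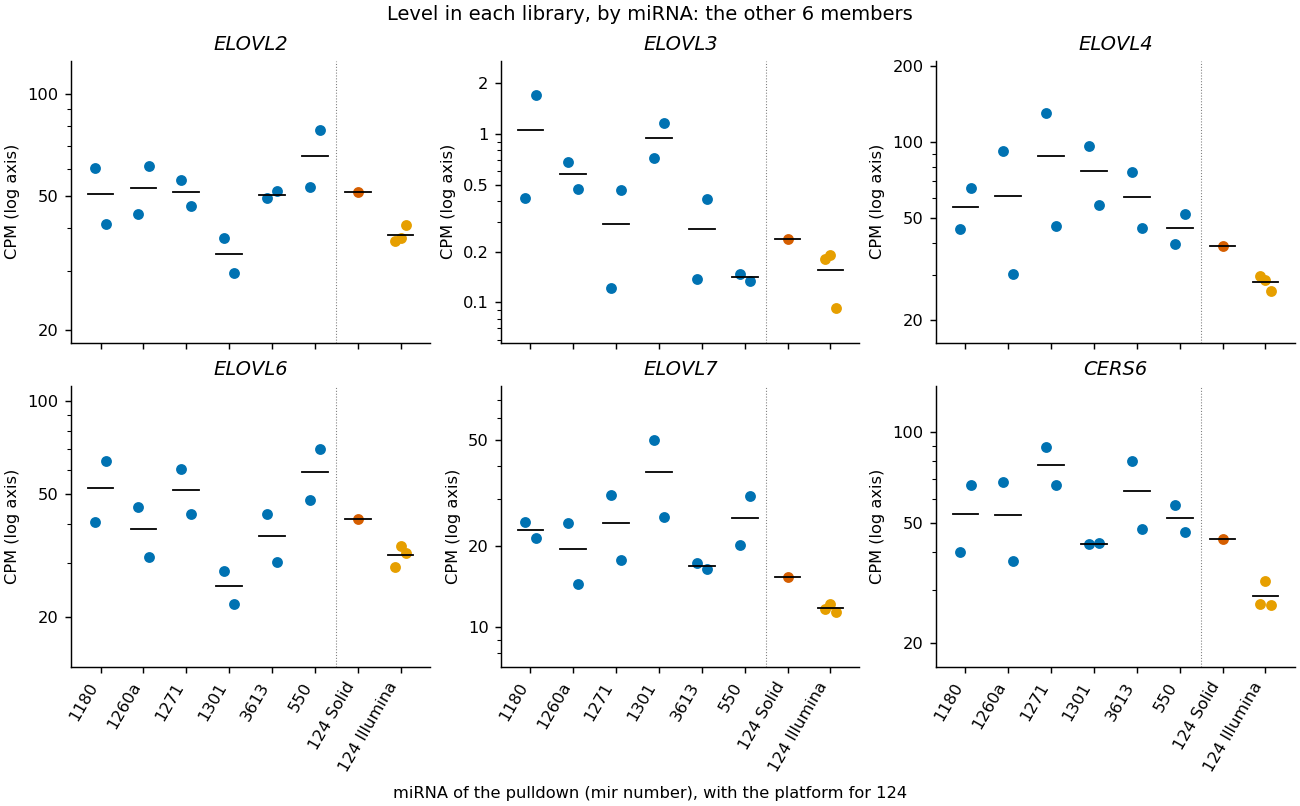
CPM on a log axis in each library for ELOVL2, ELOVL3, ELOVL4, ELOVL6, ELOVL7 and CERS6, drawn as for the genes above. The libraries of a miRNA are often far apart, as for ELOVL4 in mir1271-5p (130.2 and 46.7 CPM), and the Illumina points of ELOVL4, ELOVL7 and CERS6 lie below all blue points.

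Some genes outside these families followed the members closely. Over the 12 libraries of the 6 miRNAs, which share libraries and depth within each point and come in pairs of a miRNA, Pearson correlations of log2 CPM were taken with 11464 other genes of at least 5 CPM. CERS2 was nearest to SYCP3 (0.94), WDR11 (0.93), DERL2 (0.93) and MCRS1 (0.92). CERS5 was nearest to MAU2 (0.91), C17orf53 (0.89), PSMG3 (0.88) and RAVER1 (0.88). ELOVL6 was nearest to RNASEH2B (0.98), VMP1 (0.97), TIMM23 (0.95) and RFXAP (0.95). These are the highest of many correlations over few points and are given as a description.

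Beside the members, 103 genes of neighbouring pathways were listed, and all were in the table. In the mir124-3p Solid comparison 7 of 103 rose and 2 fell (edgeR), 6.80% and 1.94%, close to the 7.31% and 1.58% of all genes. Their median log2 fold change was 0.09 against -0.12 for all genes. Of the 18 genes that break down ceramide and its products 4 rose and 0 fell, with a median of 0.82, the highest of the lists. The lowest median was -0.50, for the 11 genes of ceramide use and transfer, of which 0 rose and 1 fell. All 4 mir124-3p libraries lay above all 12 others for 8 of the 103 listed genes and below them for 4. The shares of all genes were 10.7% and 8.20%. SGPL1, the lyase that ends the sphingosine 1-phosphate route, was at 168 CPM against 63.4 ± 14.7 in the 12 libraries (log2 fold change 1.30, edgeR adjusted p = 0.0231). It read 136, 152 and 146.7 CPM in the Illumina libraries, also above all 12. PSAP, the precursor of saposins that aid lysosomal sphingolipid hydrolysis, rose by 1.53 (adjusted p = 0.0030), at 253 CPM against 84.2 ± 24.5. In Illumina replicate 2 PSAP was at 112 CPM, within the range of the 12, and in replicates 1 and 3 at 205 and 218. SGPP2, a sphingosine 1-phosphate phosphatase, rose by 2.57 (adjusted p = 0.0163), at 10.8 CPM against 1.82 ± 1.24.

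Upstream in sphingolipid synthesis, ORMDL proteins restrain serine palmitoyltransferase. ORMDL3 rose in mir124-3p Solid by 1.47 (edgeR adjusted p = 0.0273), with 132 CPM against 45.2 ± 16.5. ORMDL1 had 99.1 CPM against 253 ± 88.0, with a log2 fold change of -1.41 (adjusted p = 0.0425). In both, all 4 mir124-3p libraries lay outside the range of the 12. The call of ORMDL3 ended with upper-quartile scaling (1.29), and that of ORMDL1 without either library of mir1180-3p, mir3613-5p or mir550-3p (-1.29 to -1.42). MLX, a transcription factor partner of carbohydrate-responsive lipid synthesis, rose by 1.73 in Solid (adjusted p = 0.0019). The Illumina libraries did not show it: MLX stood at 145, 107 and 150.3 CPM against 381 in Solid and its log2 fold change against the 6 miRNAs was 0.35. The remaining 3 called genes, UGCG (lower) and SPHK1 and MLYCD (higher), were outside the rule for naming and had adjusted p-values between 0.0458 and 0.0473.

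Other enzymes of the elongation cycle were not called in mir124-3p Solid, while TECR was higher in the Illumina libraries. Of the 7 listed (HSD17B12, TECR, TECRL and the dehydratases now named HACD1 to HACD4) 0 were called in mir124-3p Solid, with a median log2 fold change of -0.34 (edgeR). HSD17B12, the ketoacyl reductase, was at 118 CPM against 161 in the 12 (-0.47, adjusted p = 0.557). TECR, the enoyl reductase, was at 31.5 CPM against 21.0 (0.62, adjusted p = 0.406). In the Illumina libraries TECR stood at 72.8, 61.9 and 74.9 CPM, above all 12 libraries of the other miRNAs, and it was called higher than in Solid (1.43, adjusted p = 0.0057). Of the ceramide synthases that are not members, 0 of 3 were called. CERS1, typical of brain and muscle, had 44.3 CPM in Solid and 57.01, 55.9 and 64.1 in Illumina against a mean of 22.2, above all 12 libraries in each, at a log2 fold change of 1.07 (adjusted p = 0.143). Its transcript can also encode GDF1, so its reads may be shared. Illumina and Solid libraries differed for CERS3, which had 18 counts in Solid and 1 in each Illumina library.

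**Figure D5:**
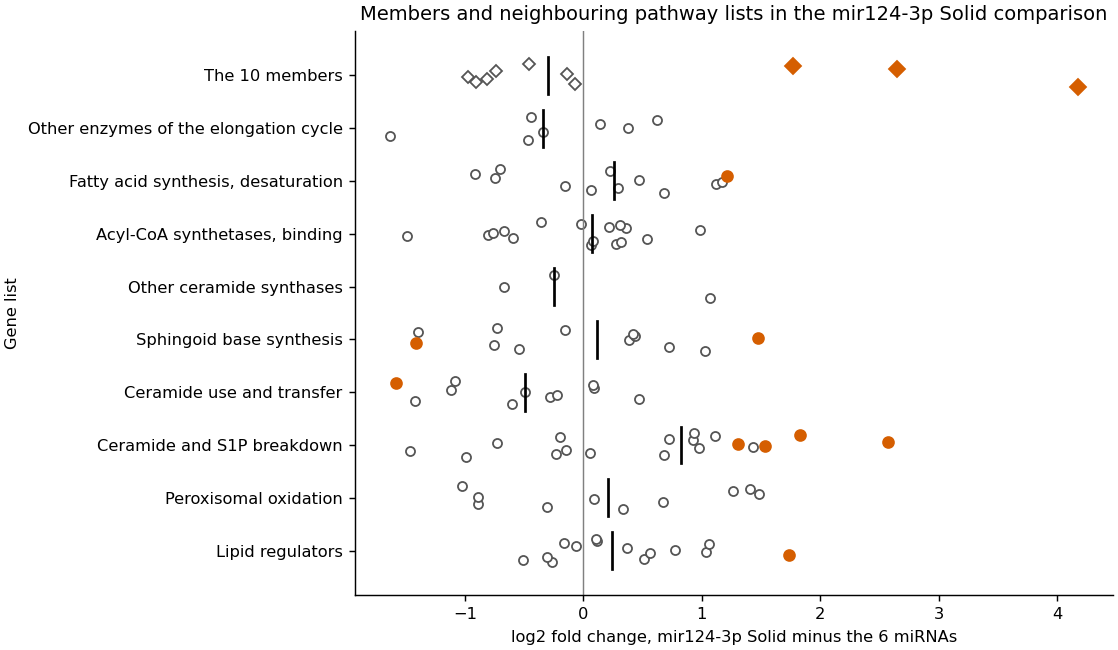
Log2 fold change in mir124-3p Solid against the 6 miRNAs for the 10 members (diamonds) and the genes of 9 neighbouring lists (circles), with called genes filled and each list's median as a line. ELOVL1, CERS2 and CERS5 lie at or beyond 1.77. The medians of the 9 lists run from -0.50 (ceramide use and transfer) to 0.82 (ceramide breakdown).

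In the other pulldowns the shares of listed genes called were near those of all genes for mir1180-3p and mir1271-5p. DEGS1, the desaturase that turns dihydroceramide into ceramide right after the ceramide synthase step, rose with mir1180-3p from 110.3 ± 21.9 to 409 CPM (log2 fold change 1.79 ± 0.23 SE, edgeR adjusted p = 0.00013). Its libraries stood at 423 and 395 CPM, and the highest of the other 10 at 155. SCD5, a stearoyl-CoA desaturase, rose by 1.11 (adjusted p = 0.0328), at 98.2 and 72.6 CPM against 37.04 ± 6.996 (SD). The call of SCD5 ended without either library of mir1180-3p, without mir1301-3p replicate 2, and on leaving out either mir550-3p library, with values from 0.83 to 1.34. With mir1271-5p, SGMS2, a sphingomyelin synthase that consumes ceramide, rose by 1.57 (adjusted p = 0.0090), at 129 and 117 CPM against 46.3 ± 21.8. The call of SGMS2 ended without replicate 1 (1.47) or replicate 2 (1.68) of mir1271-5p. Of the 102 listed genes tested, 3 rose with mir1180-3p, or 2.94% against 1.92% of all genes, and 1 with mir1271-5p, or 0.980% against 0.606%. None was called for mir1260a-5p, mir3613-5p or mir550-3p, where 0.215%, 0.0906% and 1.20% of all genes were called higher.

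With mir1301-3p 3 of the 102 rose and 5 fell (2.94% and 4.90%, against 11.5% and 4.39% of all genes). CERS1 fell by 1.33 (edgeR adjusted p = 0.0386), at 8.82 ± 4.49 CPM against 24.8 ± 10.9 (SD). Its libraries overlapped the others, and with upper-quartile scaling it was at -0.97 and not called. CERS1 was about as low with mir1180-3p, at 9.66 CPM against 24.7 (log2 fold change -1.33), but was not called there (edgeR adjusted p = 0.126). With mir1301-3p PTPLB, the dehydratase HACD2, fell by 1.95 (adjusted p = 0.0273) at a level of 1.31 CPM. PSAP (-0.9995), ACSL1 (-1.23) and SCP2 (-1.04) fell, with adjusted p-values between 0.0278 and 0.0375, and ABCD2 rose by 1.54 (adjusted p = 0.0223). ACSL1 activates long-chain fatty acids, and ABCD2 and SCP2 serve their peroxisomal oxidation. The 2 further calls, ACER1 and ACSL5, were outside the rule for naming. Without either mir1301-3p library none of the 6 named genes was called. Some of the markers of other cell types given above were called higher in these libraries, beside 11.5% of all genes.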

How the data were processed

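The authors deposited raw counts per RefSeq mRNA for 16 libraries, with no normalisation. TopHat2 and the build hg19 are named per the submitters' processing notes. For versions, the counting tool and the strand setting, the sources used here give nothing. Groups are the miRNAs in the titles, and the sequencer of the 12 libraries outside mir124-3p was not given. Members, lists and rules were chosen with earlier results of these data known.

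Counts were fitted in R 4.3.3 with edgeR 4.0.16: filterByExpr, TMM scaling and robust quasi-likelihood F tests, two-sided, with Benjamini-Hochberg adjustment over all genes. Contrasts set each miRNA against the average of 5 others over 12 libraries, mir124-3p Solid against the 6 over 13, and Illumina against Solid over 4. Log2 CPM used a prior count of 2. Each error of a fold change was taken from the test statistic. Named were all members, up to 6 called pathway genes per comparison by adjusted p, and the 4 genes nearest to each of 3 members. Alternatives were DESeq2 1.42.0, upper-quartile scaling, no filter, a replicate block and leaving out libraries. The fits were also run on simulated counts with planted changes, and nothing is concluded from those runs here. A called pathway gene is not reported here.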

Additional observations from a re-analysis of the deposited data

How the results depend on the processing

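Over all alternatives, 1084 of 1188 member values moved by less than the spread between replicates. For the lone mir124-3p Solid library the standard error of the fold change stood in for that spread. No called member changed sign. In the mir124-3p comparison ELOVL1, CERS2 and CERS5 were called under each of the 18 alternatives run. Their log2 fold changes were 3.99 to 4.52, 2.46 to 2.84 and 1.59 to 1.90. Some of these alternatives put the Illumina libraries in place of Solid. The levels chose the members, so these calls are a description and no test of them. Counts of called genes moved more. DESeq2 called 693 genes for mir1180-3p, 72 for mir1260a-5p, 163 for mir1271-5p, 880 for mir550-3p, 142 for mir3613-5p and 2678 for mir124-3p Solid, against 366, 38, 107, 266, 16 and 1613 with edgeR. Upper-quartile scaling called 50 for mir1271-5p, 4438 for mir1301-3p (2815 with TMM) and 9 for mir3613-5p. For mir124-3p Solid 1326 were higher and 287 lower with TMM, 997 and 664 with upper-quartile scaling and 1833 and 845 with DESeq2. Splits into higher and lower with DESeq2 were 1356 and 1674 for mir1301-3p (2039 and 776 with edgeR), 492 and 201 for mir1180-3p (339 and 27), 542 and 338 for mir550-3p (212 and 54), 60 and 12 for mir1260a-5p (38 and 0), 104 and 38 for mir3613-5p (16 and 0), and 1032 and 1081 for the platforms (910 and 1725). With the Illumina libraries in place of Solid, a setting chosen after seeing the data, 12307 genes were called, and 11367 less Illumina replicate 2. The cause was not tested. Leaving out single libraries gave 170 to 438 genes for mir1180-3p, 19 to 50 for mir1260a-5p, 35 to 174 for mir1271-5p, 114 to 4509 for mir1301-3p, 9 to 616 for mir550-3p, 8 to 39 for mir3613-5p, 1257 to 1945 for mir124-3p Solid and 2366 to 6968 for the platforms. Same-numbered libraries correlated between -0.14 and 0.36 in their deviations from group means, and whether they share a batch was not tested. With the replicate block 3738 genes were called for mir1301-3p, against 2815 without it. CERS2 was still called lower there. Depth limits ELOVL3 and CERS3, and single libraries limit mir124-3p Solid.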
